A study of Mus musculus with 38 samples.

Results

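The 3525 constant distal H3K27ac peaks are the regions away from gene starts that carried acetylated histone H3 lysine 27 in mouse epidermal stem cells (EpdSCs) before SOX9 was switched on and were called again at every later time point. They were chosen by measured values. Each is a peak of the D0 list that shares at least 1 bp with a peak of each of the W1, W2, W6 and W12 lists and lies over 2500 bp from every annotated start site. They make up 20.4% of the 17249 distal D0 peaks (95% exact binomial interval 19.8 to 21) and are part of 30268 D0 peaks in all. Over all D0 peaks, 34.3% were called in every later list. For the 13019 promoter peaks, those within 2500 bp of a start site, this share was 52.6%. The word constant describes only that a peak was called each time. It does not say that its strength stayed the same.

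H3K27ac marks active promoters and enhancers, and H3K4me1 marks enhancers more broadly, including ones that are primed but not active. Enhancers are short regions where transcription factors bind together and from which gene expression is driven over a distance, and in a given cell type most of its identity genes have several of them. In basal keratinocytes, p63, AP1 (dimers of FOS and JUN proteins), GRHL, KLF and TFAP2 factors are known to bind such regions. SOX9 is a high-mobility-group factor that is normally expressed in hair follicle stem cells and not in EpdSCs, and the study asked how the chromatin of EpdSCs changes when SOX9 is kept on in them.

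All skin groups carried the transgenes K14rtTA and TRE-myc-Sox9, in which the Krt14 promoter drives the doxycycline (DOX)-dependent activator and a DOX-responsive element drives MYC-tagged Sox9. The mice were male, DOX was injected at postnatal day 21 and then given in feed, and basal EpdSCs were sorted from back skin by high CD49f and Ly6A and no CD34, after removal of cells with CD31, CD45, CD117 or CD140a, at D0 (uninduced) and after 1, 2 and 6 weeks. The W12 cells came from neonatal skin of the same genotype grafted onto immunocompromised female hosts, so that time and grafting cannot be told apart at W12. By the labels, some W2 libraries were pooled with the W12 libraries and told apart by barcode. Chromatin was profiled by MINT-ChIP, a barcoded chromatin immunoprecipitation for small numbers of cells. In addition, H3K4me1 was mapped in cultured Krt14-rtTA EpdSCs from newborn pups that carried lentiviral wild-type SOX9, SOX9 without its DNA-binding HMG domain (ΔHMG) or SOX9 without its transactivation domain (ΔTA), after DOX, with uninduced wild-type cells as the control. The sample titles name libraries of high and of low micrococcal nuclease (MNase) digestion for each mark and time point and for the culture. The lists do not separate these digestions, and their part in peak widths was not tested. Each mark and time point has 1 list, made from pooled replicates, so no spread between replicates can be given and no difference below carries a p-value. The intervals cover counting error over regions only. In such pools, fewer cells with a mark and less of the mark per cell cannot be told apart.

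The defining loci of the sorted cells carried these peaks. Krt5, Krt14, Trp63, Itga6, Itgb4 and Col17a1 each had at least 1 constant distal peak within 50 kb of a start site, and each had a D0 peak at a start site as well. Of the genes that mark cells the sort removes, Ptprc, Cdh5, Pdgfra, Kit and Cd34 had none within 50 kb and no D0 peak at a start site. Pecam1, an endothelial adhesion gene, had 4 within 50 kb, the strongest with a D0 fold of 36, but no D0 peak at its own start site. Which gene these 4 act on was not tested.

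The sequences below show what these regions look like at the base level. The first set was chosen after the values were seen: it holds the AP1 motif nearest to the D0 summit with its flanks, in members that were among the 10 strongest or lie at the Itga6, Grhl3 and Egfr loci. All are the plus strand of GRCm38 (mm10), and capitals mark the AP1 letters TGAGTCA or their reverse complement TGACTCA.
near Vcpkmt, chr12:69537829-69537929: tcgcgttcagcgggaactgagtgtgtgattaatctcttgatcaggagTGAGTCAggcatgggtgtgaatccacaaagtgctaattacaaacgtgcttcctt
Grhl1 intron, chr12:24593603-24593703: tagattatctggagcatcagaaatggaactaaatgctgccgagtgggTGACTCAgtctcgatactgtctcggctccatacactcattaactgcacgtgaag
near Perp, chr10:18861546-18861646: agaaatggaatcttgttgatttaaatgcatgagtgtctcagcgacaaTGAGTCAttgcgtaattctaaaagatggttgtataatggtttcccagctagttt
Frmd4b intron, chr6:97310957-97311057: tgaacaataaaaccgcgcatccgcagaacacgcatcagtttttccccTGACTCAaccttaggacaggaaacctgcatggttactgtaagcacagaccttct
Myo1e exon, chr9:70301927-70302027: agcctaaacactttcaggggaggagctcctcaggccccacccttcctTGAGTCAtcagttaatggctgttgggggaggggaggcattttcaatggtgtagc
Itga6 intron, chr2:71805150-71805250: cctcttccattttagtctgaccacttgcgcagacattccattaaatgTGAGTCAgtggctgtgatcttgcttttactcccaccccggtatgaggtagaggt
near Grhl3, chr4:135598511-135598611: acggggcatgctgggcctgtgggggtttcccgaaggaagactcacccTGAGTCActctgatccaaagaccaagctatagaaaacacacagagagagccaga
Egfr intron, chr11:16790408-16790508: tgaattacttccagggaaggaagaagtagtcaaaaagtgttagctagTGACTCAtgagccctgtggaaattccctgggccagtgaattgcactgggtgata

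In this set the AP1 match lay at offsets of -159 bp (Vcpkmt), 204 bp (Perp), 205 bp (Myo1e), -343 bp (Itga6), 316 bp (Grhl3) and -242 bp (Egfr) from the summit, and farther out at 713 bp in the Grhl1 intron and at -1195 bp in the Frmd4b intron. The Vcpkmt, Perp and Egfr peaks held 3 matches each. No match was found anywhere in the peaks near Ccnl1 and Pdia4 or in Cdh1, nor in those of Trp63, Krt5 and Klf5.

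The second set shows the 300 bp centred on the D0 summit, where the acetylation itself was highest. It holds the strongest member at D0 within 50 kb of each of 6 epidermal loci. Capitals mark a p53 family match in the Klf5 and Itga6 windows. The other windows hold none, and no window of this set holds AP1 letters.
Trp63 intron, chr16:25805090-25805389: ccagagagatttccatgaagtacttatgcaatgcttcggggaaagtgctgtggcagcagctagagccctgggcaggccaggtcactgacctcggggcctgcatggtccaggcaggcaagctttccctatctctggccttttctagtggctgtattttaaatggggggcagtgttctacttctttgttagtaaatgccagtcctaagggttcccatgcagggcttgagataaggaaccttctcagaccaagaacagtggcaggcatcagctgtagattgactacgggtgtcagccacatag
near Krt5, chr15:101717723-101718022: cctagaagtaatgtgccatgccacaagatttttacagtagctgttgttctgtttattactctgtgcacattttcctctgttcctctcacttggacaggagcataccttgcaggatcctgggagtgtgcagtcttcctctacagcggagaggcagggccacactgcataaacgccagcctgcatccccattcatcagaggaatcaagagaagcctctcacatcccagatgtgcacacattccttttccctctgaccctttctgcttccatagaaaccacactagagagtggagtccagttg
Klf5 exon, chr14:99303428-99303727: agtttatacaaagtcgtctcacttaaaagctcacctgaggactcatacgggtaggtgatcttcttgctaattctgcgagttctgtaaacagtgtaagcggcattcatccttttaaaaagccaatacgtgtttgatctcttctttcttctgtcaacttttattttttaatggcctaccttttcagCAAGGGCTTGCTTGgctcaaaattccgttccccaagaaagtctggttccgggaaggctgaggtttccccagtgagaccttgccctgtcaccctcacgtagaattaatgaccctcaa
Itga6 intron, chr2:71805393-71805692: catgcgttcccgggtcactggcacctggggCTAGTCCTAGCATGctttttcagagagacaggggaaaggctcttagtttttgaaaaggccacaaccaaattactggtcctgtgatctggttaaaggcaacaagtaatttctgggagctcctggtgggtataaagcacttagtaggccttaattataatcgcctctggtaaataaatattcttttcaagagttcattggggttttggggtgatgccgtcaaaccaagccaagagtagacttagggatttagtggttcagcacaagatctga
near Grhl3, chr4:135598095-135598394: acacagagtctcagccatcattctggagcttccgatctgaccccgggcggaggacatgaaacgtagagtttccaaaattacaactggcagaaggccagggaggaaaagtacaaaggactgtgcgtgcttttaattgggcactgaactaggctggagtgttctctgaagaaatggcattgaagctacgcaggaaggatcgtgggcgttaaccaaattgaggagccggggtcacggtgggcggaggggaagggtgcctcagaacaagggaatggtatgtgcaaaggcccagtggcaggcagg
Egfr intron, chr11:16790550-16790849: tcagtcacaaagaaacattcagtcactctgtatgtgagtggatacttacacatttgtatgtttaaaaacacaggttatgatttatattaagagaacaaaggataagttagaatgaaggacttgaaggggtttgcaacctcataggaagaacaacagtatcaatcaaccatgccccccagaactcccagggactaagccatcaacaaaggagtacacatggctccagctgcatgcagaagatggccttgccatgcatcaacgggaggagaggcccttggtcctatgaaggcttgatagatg

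In the Egfr window 59.7% of the bases are marked as repeats in the RefSeq genome. Of the other motifs searched, the Trp63 window, in an intron of the gene for p63, holds the SOX letters ACAAAG and GATA, CEBP and TFAP2 letters. The Krt5 window, near the basal keratin gene, holds RUNX and TEAD letters. The Grhl3 window holds ACAAAG and TEAD, SP and NFY letters.

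Constant distal peaks were wide. Their median width was 1109 bp at D0 (95% order-statistic interval 1071 to 1144), compared with 456 bp (451 to 461) for the 13724 distal D0 peaks that were missing from at least 1 later list, called changing distal peaks here. The later calls belong to the rule, so this difference is a description. The members' median width was then 1328 bp after 1 week, 1623 bp (1575 to 1675) after 2 weeks and 1372 bp after 6 weeks. In the grafts of W12 it was 927 bp (904 to 963). A later width here is the sum of the full widths of all peaks in that list that overlap the member. Between 5.22% (W2) and 10.5% (W1 and W6) of members had several such peaks. In the W2 list 525 members (14.9%) shared a peak with another member, and its full width counts for each. By this measure, 67.7% of members were wider at W2 than at D0 and 1140 had at least doubled. At W12, 40.4% were wider and 757 had shrunk to at most 0.5 of their D0 width. The 6842 constant promoter peaks measured 1303 bp before induction, were widest at W6 with 1552 bp and narrowest at W12 with 939 bp. The widths of whole lists moved too, with medians over all peaks of 635, 642, 821, 715 and 476 bp in order of time. The members and the whole lists were both widest at W2 and narrowest at W12, and the part of the list in this was not tested.

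Peak strength is given as the fold of the peak summit over background, with 1 added to both, as MACS2 reports it. This fold depends on sequencing depth. Estimated from the folds as 1 value per list, the background pileup was 0.501, 0.299, 0.425, 0.677 and 0.412 fragments in the 5 lists. These values fitted the folds of 96.0%, 94.4%, 95.8%, 92.1% and 83.3% of peaks. Strength was therefore compared over time by the percentile of a fold within its own list, where 100 is the strongest peak. At D0 the fold is that of the member itself, and later it is that of the strongest peak overlapping the member. In order of time, the median fold of the members was 8.66, 7.70, 9.12, 8.95 and 7.79. The matching median percentiles were 69.2, 78.3, 74.7, 67.0 and 79.6. Constant promoter peaks ranked higher at each time, from 82.5 at W1 to 86.2 at W6.

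**Figure D1:**
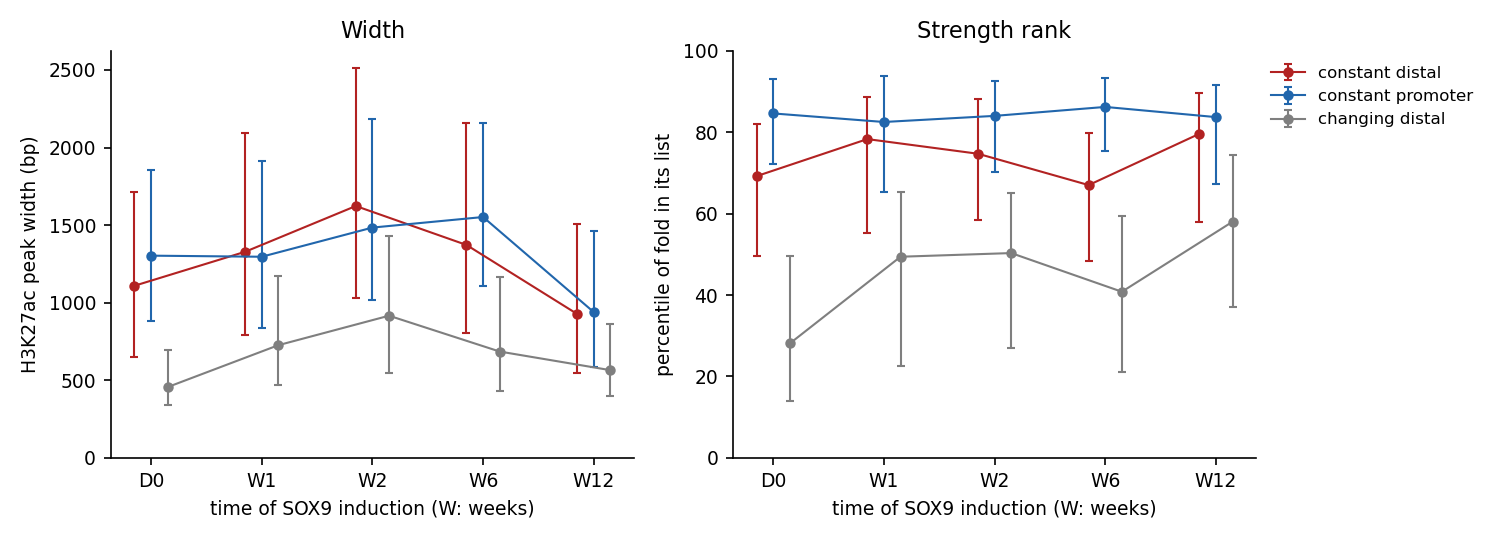
Median width in bp (left) and median percentile of fold within its own list (right) of constant distal, constant promoter and changing distal D0 peaks against time of induction. Bars span the quartiles over peaks, and changing distal peaks are shown where they were called. Constant distal peaks were widest at W2 (1623 bp) and narrowest at W12 (927 bp), and their median rank stayed between 67.0 and 79.6.

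Being called throughout did not mean holding one rank. The percentile of a single member ranged over a median of 38.3 points across the 5 lists, 601 members (17%) stayed within 20 points and 1084 (30.8%) moved by more than 50. At or above the 50 percentile of all 5 lists were 1489 members (42.2%), at or above the 75 percentile of all 5 were 441 (12.5%) and at or above the 90 percentile of all 5 were 88. Below the 50 percentile of every list were 28. Over the 3525 members, Spearman's rho of the folds was 0.405 for D0 with W1, 0.319 with W2, 0.378 with W6 and 0.401 with W12, and 0.591 for W2 with W6. These points share their lists and depths, so the coefficients are descriptive. The position of the summit moved by a median of 177, 200, 160 and 213 bp in the 4 later lists. It stayed inside the D0 peak for 78.4% of members at W2 and for 82.4 to 82.6% at the other times.

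The 10 members with the highest lowest rank were among the strongest peaks of every list. The first lies between genes on chr12:69536456-69539615, with Vcpkmt as the nearest protein-coding gene at 43413 bp. Its folds in order of time were 86, 28.5, 34.4, 34.6 and 23.4. It was at or above the 99.8 percentile each time. The peak near Perp, a p63 target needed for desmosomes, lies 13715 bp from its start site on chr10:18858735-18862096. Its folds were 58.0, 25.4, 37.2, 25 and 33.3, and it stood at the 98.2 percentile at W6 and at or above 99.8 at the other times. Repeats made up 93% of its summit window. The peak in an intron of Cdh1, which encodes E-cadherin, lies 17855 bp from a start site on chr8:106621234-106625238. Its folds were 42.0, 20.8, 21.1, 23.3 and 18.4, and its covered width rose from 4005 bp to 10075 bp in the W2 list, and was 3612 bp and 2769 bp in the last 2 lists. The Grhl1 intron peak, at the gene of a grainyhead factor of epidermal differentiation, had folds of 40.0, 19.2, 23.9, 32.8 and 28.3. The Myo1e peak, which overlaps an exon of that unconventional myosin, had folds of 44.6, 19.2, 23.9, 22.7 and 25.5. Others of this set lie near Ccnl1, Pdia4 and Med13l and in an intron of Frmd4b.

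Part of this set lies in sequence with copies. In the 300 bp window near Pdia4, 81.5% of the 31-base words sampled occurred elsewhere in the genome, in a median of 17 copies. Whether reads of other copies add to this peak was not tested. Over all members, 35 (0.993%) had at least 50% of their sampled words elsewhere. This share was 1.41% over all D0 peaks, 1.86% for changing distal peaks and 0.628% for constant promoter peaks.

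Members that changed rank most show what constant can include. The 5 with the largest rise from D0 to W6 were weak at D0. The member 28896 bp from Nfkbia, the gene of an inhibitor of NF-κB, had a fold of 3.52 at D0 and then 15.4, 21.8, 22.1 and 17. Its width went from 804 bp to 4148 bp at W1 and 7165 bp at W2. The member in an intron of Itgb6, an epithelial integrin subunit, had folds of 3.33, 11.5, 20.3, 18.5 and 14.9 and grew from 296 bp to 4664 bp at W1. The member in an intron of Igsf8 had folds of 3.33, 12.3, 20.3, 17.3 and 9.21. It lies 3132 bp from the Igsf8 start site, and its widths were 475, 7023, 8209, 7851 and 1072 bp. Whether the wide later peaks reach the start site was not tested. The member in an intron of Ccdc192 had folds of 3.61, 6.64, 20.4, 28.8 and 8.78, and that near Clec2d had folds of 3.33, 17.7, 24.6, 18.5 and 17.7. All 5 were at or below the 6.25 percentile at D0 and at or above 91.8 at W6.

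The 5 with the largest fall were strong at D0 and among the weaker peaks at W6. The member in an intron of Pkib, a protein kinase A inhibitor, had folds of 19.3, 11.5, 13.3, 4.53 and 4.96. Its width fell from 1551 bp at D0 to 749 bp at W6 and 302 bp at W12. The member in an intron of Abhd2 had folds of 16.7, 5.39, 8.42, 4.17 and 5.67, and that near Slco3a1 had folds of 13.3, 5.39, 5.61, 3.58 and 6.38. In the others, near Gm10160 and in an intron of 9130204K15Rik, the D0 folds of 12 and 13.3 went to 3.51 and 4.13 at W6. These members were picked for their change between D0 and W6, so that change is a description.

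**Figure D2:**
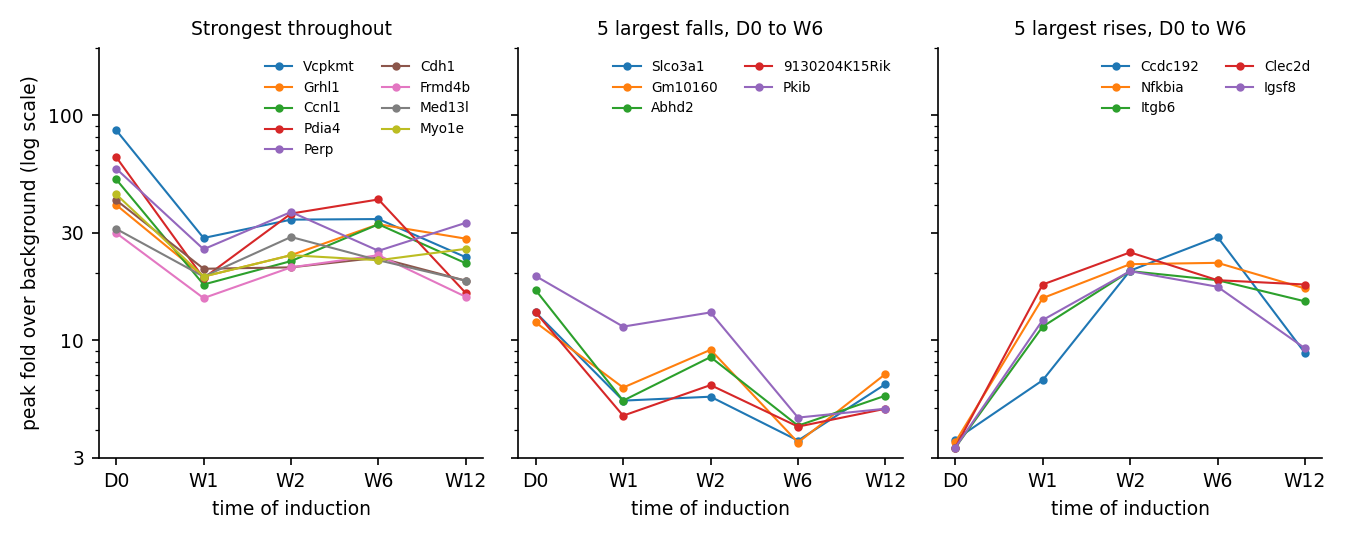
Fold of the peak over background (log axis) at the 5 time points for all but 1 of the 10 members with the highest lowest rank, the 5 with the largest fall in percentile from D0 to W6 and the 5 with the largest rise, each named by the gene it lies in or the nearest protein-coding gene. Folds depend on the depth of each list. The rising members start between 3.33 and 3.61 at D0 and reach 17.3 to 28.8 at W6.

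The widest members at D0 were a peak of 8937 bp whose nearest protein-coding gene is Haao, one of 8030 bp near Vmn1r2, one of 7940 bp in an intron of Gm35853 with Krt80 as the nearest protein-coding gene, one of 7914 bp lying 278570 bp from Klf5 and one of 7795 bp in an intron of Myh9. The Klf5 neighbour was also strong, with folds of 56.6, 13.1, 21.1, 34.6 and 20.5. The peak near Vmn1r2, a vomeronasal receptor gene, differed from the others in having no H3K4me1 domain at any skin time point and in no culture list.

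Nearly every member was in an H3K4me1 domain in skin. At single time points the share was 99.1 to 99.4%, and 98.5% (98.1 to 98.9) were in a domain at all 5 time points. Over all D0 peaks this share was 86.5%. For changing distal peaks it was 86.9% (86.3 to 87.5), for those called at D0 alone 72.3%, for those called in 2 later lists 96.8%, for those called in 3 later lists 98.2% (97.6 to 98.6), which overlaps the members' interval, and for constant promoter peaks 85.3%. The domains over members were broad, with a median of 11600 bp (11200 to 11800) at D0 and 9800 bp (9400 to 10000) at W12, against 9200 bp and 6400 bp for changing distal peaks. The median of all H3K4me1 domains lay between 2400 and 2800 bp. The H3K4me1 lists were not used in the choice of members, but they come from the same sorted cells.

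The same comparison was made within bands of D0 strength. Among distal peaks below the 50 percentile of the D0 list, 98.9% of 1011 members and 84.9% of 10933 changing peaks were in a domain at all 5 time points. Between the 50 and 75 percentiles the shares were 98.7% and 95.3%, and between the 75 and 90 percentiles 98.7% and 95.1%. From the 90 percentile they were 96.8% of 409 and 66.7% of only 42 (50.5 to 80.4). Bands of width were not tried for these shares.

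The exceptions were few and had common features. In no H3K4me1 domain at any time were 16 members, of which 13 had at least 50% of their 300 bp window marked as repeats and 13 had at least 20% of their sampled 31-base words elsewhere in the genome. Over all members, 231 of 3525 (6.55%) reached that 50% of repeats and 186 reached that 20% of words. Of all D0 peaks, 5.92% reached that 50% of repeats. Of the 16, 12 were in no culture domain either. They include wide peaks next to the vomeronasal receptor genes Vmn1r2, Vmn1r77 and Vmn1r238, with D0 folds of 15.3, 25.3 and 16.7 and W6 folds of 23.3, 41.7 and 25. What part sequence copies had in these peaks was not tested.

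Most members also lay in H3K4me1 domains of cultured EpdSCs, which were not used to choose them and come from other cells. Without DOX, 84.3% (83 to 85.5) of members were in a domain, compared with 62.1% of all D0 peaks, 62.5% (61.6 to 63.3) of changing distal peaks and 55.4% of constant promoter peaks. With wild-type SOX9 the members' share was 86.6%, with ΔHMG 83% and with ΔTA 83.5%. Over all D0 peaks these 3 shares were 62.7%, 57.5% and 58.2%, and for changing distal peaks 59.1%, 60.0% and 60.5%. In all 4 culture lists were 74.8% (73.3 to 76.2), compared with 45.8% of all D0 peaks and 46.3% of changing distal peaks. In none of them were 261 members (7.40%), against 25.7% of all D0 peaks. The share rose step by step with persistence in skin: among distal D0 peaks called in 0, 1, 2, 3 and 4 later lists, 31.4%, 46.7%, 55.8%, 63.9% and 74.8% were in all 4 culture lists. Within bands of D0 strength the members stayed above changing distal peaks, at 67.3% against 42.3% below the 50 percentile, 74.8% against 60.9% between the 50 and 75 percentiles and 80.8% against 70.5% between the 75 and 90 percentiles. Members were wider than changing distal peaks, and a wider peak can meet a domain by 1 bp more easily. The culture shares were not compared within bands of width, so the part of width was not tested. The culture domains over members were not the strongest of their lists. Without DOX their median fold was 3.18, where all domains had a median of 3.57.

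Members rarely lost their culture domain. Of 2971 members with a domain without DOX, 139 (4.68%, 3.95 to 5.50) had none with wild-type SOX9, 5.49% none with ΔHMG and 5.69% none with ΔTA. Over all D0 peaks these shares were 12.5%, 14.4% and 15%, and for changing distal peaks 16%, 11.7% and 13.2%. Of the members with an uninduced domain, 24 (0.808%) had none with any of the 3 variants. Over all D0 peaks with an uninduced domain this share was 3.90%. Of the 554 members without a domain in uninduced cells, 220 (39.7%, 35.6 to 43.9) had one with wild-type SOX9, 21.1% (17.8 to 24.8) with ΔHMG and 25.3% (21.7 to 29.1) with ΔTA. Over all D0 peaks without an uninduced domain the shares were 21.9%, 11.3% and 14.3%. Each culture condition is a single pooled list, and the 4 lists differ in length from 110589 to 123338 domains, so whether the wild-type excess exceeds the spread between cultures cannot be told.

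**Figure D3:**
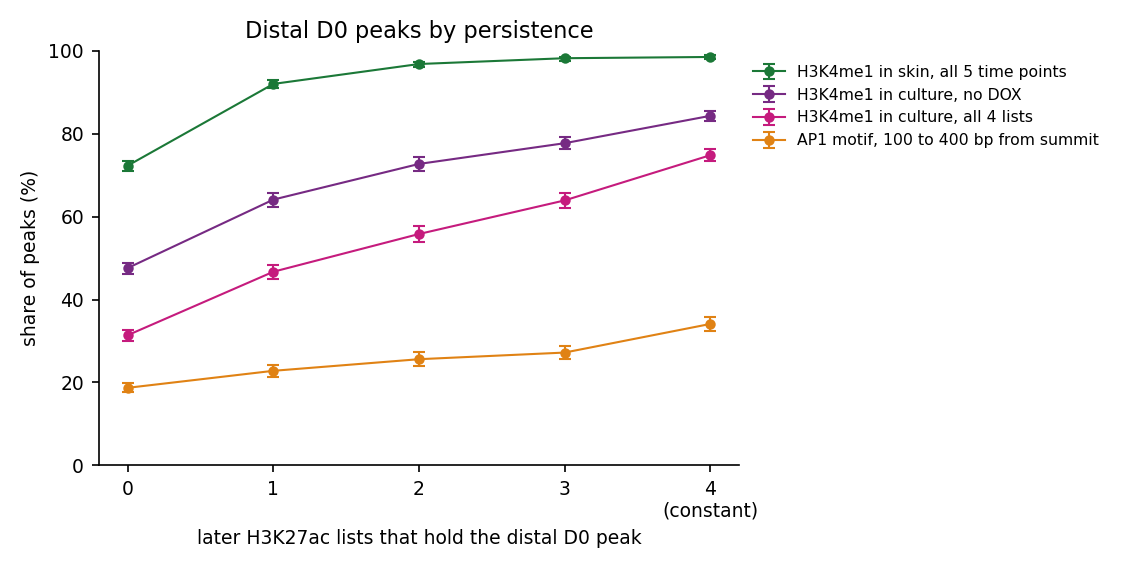
Share of distal D0 peaks (%) in an H3K4me1 domain at all 5 skin time points, in the uninduced culture list, in all 4 culture lists, and with an AP1 motif 100 to 400 bp from the D0 summit, against the number of later H3K27ac lists that hold the peak. Bars are 95% exact binomial intervals. All 4 shares are highest for the constant peaks, at 98.5%, 84.3%, 74.8% and 34.1%.

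The DNA of the members was examined with letter searches on both strands, in 300 bp windows on the D0 summit. A match is a description and not a bound site. AP1 letters (TGAGTCA) were in 8.54% (7.64 to 9.51) of member windows, 7.52% (7.08 to 7.97) of changing distal windows, 3.58% of constant promoter windows, 6.11% of all D0 windows and 5.20% of the 32851 RefSeq promoter sequences of the same length. The summit was, however, a poor place to look. Within 50 bp of the summit the members had 0.108 and 0.130 AP1 matches per kb on the 2 sides. The density was highest at -275 bp and 225 bp from it, at 0.783 and 0.817 per kb, and at -975 bp and 975 bp it was 0.221 and 0.255. Changing distal peaks had the same shape with lower shoulders of at most 0.504 per kb and ends of 0.220 and 0.213. Constant promoter peaks stayed at or below 0.281.

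A stretch of 600 bp, 100 to 400 bp from the summit on both sides, was therefore added after the profile was seen. In it, 34.1% (32.5 to 35.7) of members held AP1 letters, compared with 19.6% of all D0 peaks, 22.7% (22.0 to 23.4) of changing distal peaks and 11.9% of constant promoter peaks. At 700 to 1000 bp from the summit, in the same length of sequence, the members' share was 14.2% and that of changing distal peaks 11.5%. Among distal D0 peaks called in 0, 1, 2, 3 and 4 later lists, the share near the summit was 18.7%, 22.8%, 25.6%, 27.2% and 34.1%. Members and changing distal peaks were also set side by side within bands of D0 strength. Below the 50 percentile of the D0 list 27.5% (24.8 to 30.4) of members and 20.2% (19.4 to 20.9) of changing distal peaks held the letters, but between the 50 and 75 percentiles the shares were 32.9% and 31.7%, and between the 75 and 90 percentiles 38.5% and 38.3%, with overlapping intervals in both bands. From the 90 percentile they were 44.7% (39.9 to 49.7) of 409 members and 28.6% (15.7 to 44.6) of 42 changing distal peaks, again with overlapping intervals. Within bands of width the members were higher in each, from 30.2% against 20.9% below 500 bp to 38.6% against 30.7% from 2000 bp, where the intervals of the last pair overlap. Members in all 4 culture lists held AP1 letters more often than those in none, at 37.0% (35.2 to 38.9) against 21.8% (17 to 27.3). Changing distal peaks showed the same order, at 29.6% against 13.2%.

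**Figure D4:**
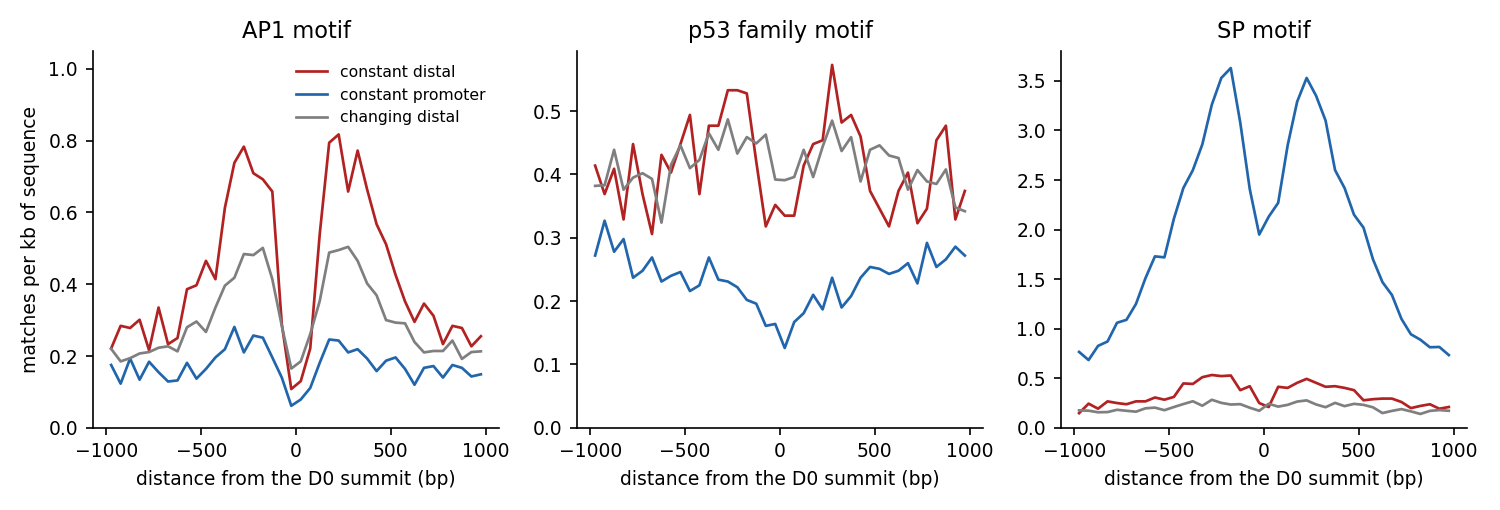
Matches per kb of sequence to the AP1, p53 family and SP motifs in 50 bp steps up to 1000 bp from the D0 summit, for constant distal, constant promoter and changing distal peaks. Vertical scales differ between panels. AP1 matches dip at the summit to 0.108 per kb in constant distal peaks and peak on both sides at 0.783 and 0.817, while SP matches reach 3.63 per kb in constant promoter peaks.

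The other motifs were searched in the same 600 bp. GC-box letters of the SP family (GGGCGG) were in 18.9% (17.6 to 20.2) of members and 11.4% (10.8 to 11.9) of changing distal peaks, but in 70.8% of constant promoter peaks. Within bands of D0 strength, measured in the 300 bp window, the SP share of members and changing distal peaks was 5.84% and 5.54% below the 50 percentile, 9.20% and 5.68% from 50 to 75, 8.65% and 10.1% from 75 to 90, and 14.2% and 33.3% above, so that members were not higher throughout. KLF letters (CCACACCC) were in 11.3% (10.3 to 12.4) and 8.10% (7.65 to 8.57). In the 300 bp window the KLF shares were 4.09% (3.46 to 4.79) and 3.45% (3.15 to 3.77), which overlap before any banding. The overlap in every strength band of that window therefore cannot tell whether the difference in the 600 bp holds at equal strength. ETS letters (CCGGAAG) were in 5.28% and 3.05%. The cAMP response letters TGACGTCA were in 1.22% and 0.576%. GATA letters (AGATAA) ran the other way, at 28.3% (26.8 to 29.8) against 31.1% (30.3 to 31.9). In the 300 bp window the GATA intervals overlapped in every strength band, and from 75 to 90 members were higher (13.5% against 11.5%). At 700 to 1000 bp from the summit the GATA shares were 27.7% and 29.4%. The SOX letters ACAATG were in 25.6% and 26.4%, and ACAAAG in 41.6% and 41.1%, within the intervals. The p53 family motif, searched as a degenerate palindromic pattern of paired core letters with fixed spacing, was in 23.7% (22.3 to 25.1) and 22.1% (21.4 to 22.8), also overlapping. TEAD letters (GGAATG) were in 34.6% and 32.4% and GRHL letters (AACCNGTT) in 6.67% and 5.63%, again with overlapping intervals. Over all D0 peaks the shares were 33.7% for SP, 8.23% for KLF, 24.7% for GATA and 18.4% for the p53 family. They were 21.9% for ACAATG, 36.6% for ACAAAG, 29.2% for TEAD and 5.35% for GRHL. For ETS this share was 9.76% and for the cAMP response letters 1.80%, both above the members' shares. In constant promoter peaks these letters were in 23.0% and 4.34%.

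The median GC content of the summit window was 49.3% in members, 48.0% in changing distal peaks and 61.7% in constant promoter peaks. The median ratio of observed to expected CpG was 0.231, 0.198 and 0.748. A ratio of at least 0.6, as in CpG islands, was found in 182 members (5.16%), in 2.44% of changing distal peaks and in 69.0% of constant promoter peaks. Over all D0 peaks this share was 25.8% and the median ratio was 0.296, both above the members' values.

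By annotation, the summit of 57.4% of members lay in an intron, of 39.5% between genes and of 3.09% in an exon, against 61.0%, 35.2% and 3.78% for changing distal peaks. The median distance to any start site was 13675 bp (13168 to 14266) and to a protein-coding one 26234 bp. The closest member was 2503 bp from a start site, and the constant peak just inside the limit was 2496 bp from one. Of the members, 360 (10.2%) lie within 2500 bp of a start site of the full annotation, which holds more minor transcripts. The smallest overlap that made a member was 1 bp, and in 148 members the smallest overlap was under 100 bp. Just outside the rule were 2791 distal peaks called in 3 later lists. Of these, 61.2% were missing from W12 alone, and 117 had a peak of the missing list less than 100 bp away. The members were spread over the autosomes at 18.1 to 22.3% of distal D0 peaks, with 21 members on chromosome X.

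Neighbouring members were counted along the genome, without a like count for other peaks. In runs of 2 or more less than 10000 bp apart were 1421 members, 2104 stood alone and 62 runs held at least 4. The largest run had 10 members within 27.4 kb of Myo1e, followed by 9 in Nhsl1, 9 in an intergenic stretch of which Ppara is the nearest protein-coding gene, 8 in Iqgap1 and 8 in Mbnl2. Counting by nearest protein-coding gene, 1950 genes had at least 1 member and 117 had 5 or more. Myo1e led with 15, all inside the gene. Rad51b and Rreb1 had 12 each, and Aff1, Bcl11b, Casz1 and Trp63 had 11 each. Iqgap1 and Mbnl2 had 10 each and Cxadr, which encodes a tight-junction receptor, had 9. Rreb1, Bcl11b, Casz1 and Trp63 encode transcription factors. At Iqgap1, which encodes a scaffold of the actin cytoskeleton, members were 66.7% of its distal D0 peaks, and at Myo1e 57.7%. At Trp63, with D0 folds of 4.66 to 14.0, they were 36.7%.

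Genes of the epidermis were described by the members near them. Of all 21938 protein-coding genes, 14.3% had a member within 50 kb of a start site, and of the 8533 with any distal D0 peak in that reach, 36.8% did. The gene lists were drawn up with earlier results of these data known, and genes that neighbour each other can share a member. Of 16 epidermal transcription factors, all of which had a distal D0 peak in reach, 15 had a member (93.8%, 69.8 to 99.8), led by Trp63 with 7, Grhl2 with 6 and Grhl1 with 4. Klf5, Grhl3, Zfp750 and Cebpb had 3 each. The strongest at D0 were those of Zfp750, a late differentiation factor, at a fold of 40.7 and of Grhl1 at 40.0. Of 22 genes for basal keratins and adhesion, 18 had one (81.8%, 59.7 to 94.8). Cdh1 had 9, the desmosomal genes Dsp and Pkp1 8 each, Perp 5, and Plec, Cd44 and Dsg3 4 each. Krt5 and Krt14 had 1 each, with D0 folds of 8.66 and 10.

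Of the 9 AP1 genes 5 had a member, with 5 at Fos and 2 each at Jund, Fosb and Fosl2. Of 17 signalling genes 9 had one, with 3 each at Notch1 and Tgfbr2. Of 11 differentiation genes 5 had one, with 2 at Krtdap. Of 17 hair follicle stem cell genes 6 had one (35.3%, 14.2 to 61.7), with 4 at Nfib and 3 each at Nfia and Krt17. The endogenous Sox9 gene had 1, with a low D0 fold of 4.66. Housekeeping genes had members at 3 of 12 (25%), with 2 at Eef2 and 1 at Eef1a1, and genes of other lineages at 2 of 14 (14.3%), Pecam1 and Cd3e. Among genes with any distal D0 peak in reach, 2 of 4 genes of other lineages and 3 of 7 housekeeping genes (42.9%) had a member, against 36.8% of all such genes. The same share was 62.5% for AP1, 60.0% for hair follicle stem cell genes (6 of 10), 56.2% for signalling and 55.6% for differentiation. Of the pairs of a gene and a distal D0 peak within 50 kb, 21.2% were with constant peaks over all protein-coding genes. In the lists this share was 43.3% for epidermal transcription factors, 36.9% for basal keratins and adhesion, 33.3% (5 of 15 pairs) for other lineages, 29.3% for AP1, 28.6% for hair follicle stem cell genes, 18.8% for differentiation, 18.6% for signalling and 16.7% for housekeeping.

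**Figure D5:**
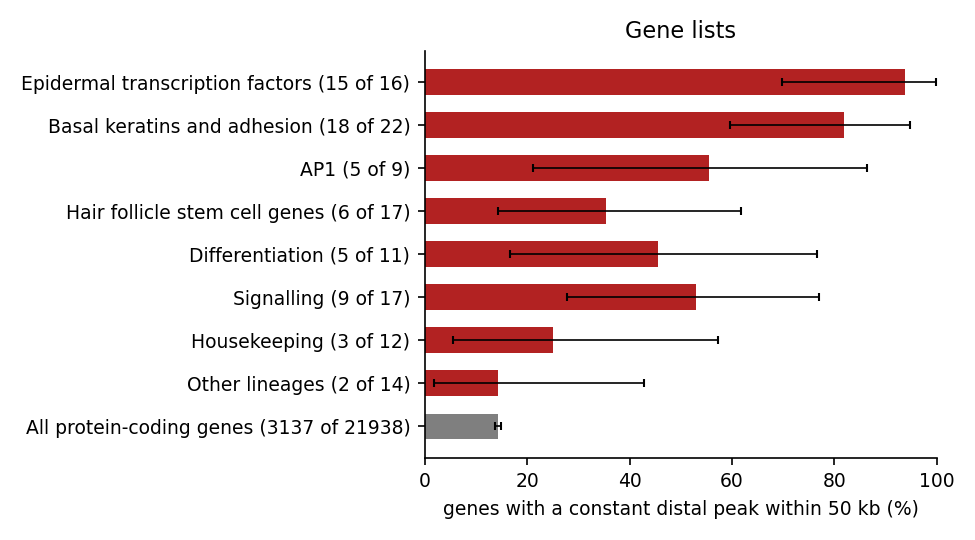
Share of genes (%) with a constant distal peak within 50 kb of a start site in 8 gene lists (red) and over all protein-coding genes (grey). Bars carry 95% exact binomial intervals and labels give the counts. The epidermal transcription factor list (93.8%) and the basal keratin and adhesion list (81.8%) lie above all protein-coding genes (14.3%), of which many have no distal D0 peak in reach.

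Single loci show how members of one list differ. The strongest member at the Trp63 gene within 50 kb of a start site, 2524 bp from one, had folds of 10, 12.3, 15.4, 10.1 and 9.21. Its width went from 1173 bp at D0 to 5559 bp at W2, and it was in no culture domain. The Itga6 intron member, at the gene of the α6 integrin that is part of the sort, had folds of 15.3, 10, 11.2, 8.95 and 9.21. The Grhl3 member had folds of 15.3, 10.8, 9.12, 10.1 and 13.5. The Krt5 member had folds of 8.66, 4.62, 6.32, 4.77 and 7.79, so that its percentile went from 69.2 at D0 to 21 at W6 and 79.6 at W12. The Klf5 member, which overlaps an exon, had folds of 12, 6.16, 5.61, 10.1 and 6.38. The Egfr intron member had folds of 11.3, 4.62, 6.32, 6.56 and 8.5. All 6 were in an H3K4me1 domain of skin at each of the 5 time points, and all but the Trp63 member were in all 4 culture lists.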

How the data were processed

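H3K27ac and H3K4me1 were measured by MINT-ChIP in sorted and cultured EpdSCs. Per the labels and the methods of the study, the authors aligned reads with Bowtie2 2.2.9 to mm10, removed duplicates with Picard, merged replicates with SAMtools 1.9, and called H3K27ac with MACS2 2.1.1 and skin H3K4me1 with epic2. SICER 0.0.36 and deepTools 2.5.4 are named too, and control tracks and call settings are not given in the sources used here. The deposited H3K27ac and culture lists hold a score, a fold (ratio) over background, and −log10 p and q values. The deposited skin H3K4me1 lists hold a p-value per domain. Peaks were compared by position, fold and score, and the p and q values were not tested further.

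From these 14 lists, overlaps of at least 1 bp, distances to 77161 start sites (GENCODE M21 basic), fold percentiles and motif matches on both strands of GRCm38 were computed with Python 3.11.15, NumPy 2.4.6, SciPy 1.17.1 and Matplotlib 3.10.9. Intervals are 95% Clopper-Pearson for shares and order-statistic for medians. Read totals are not given in these lists, so depth is known only through the estimated background pileup. Named members are the 10 with the highest lowest percentile, the 5 largest rises and falls from D0 to W6, the 5 widest, and the strongest at chosen loci, and named genes are the 10 with most members. The members, lists and motifs were chosen with earlier results of these data known. The scripts were tested on simulated data. Alternatives covered the overlap, distance, score, joining of peaks, sex chromosomes, motif window and gene distance. The barcode tables were not used here. A few named items and 1 sequence are not reported here.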

Additional observations from a re-analysis of the deposited data

How the results depend on the processing

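Of 114 values of 13 results under other settings, 78 stayed within their interval or, for the number of members, which has none, within 1.5 times the value reported, and 36 moved. Only the members' own values were recomputed, so the comparisons with other peaks were not tried under these settings. Asking for an overlap of at least 50% of the shorter peak gave a share of distal peaks of 17.1%, a D0 width of 1226 bp, a D0 percentile of 72.2, an uninduced culture share of 85.5%, an all-culture share of 76.2% and 12.7% of genes with a member. Keeping peaks with a score above the median left 1339 members (25.2%), widths of 1575, 2157 and 1273 bp at D0, W2 and W12, percentiles of 61.3 at D0 and 72.9 at W12, culture shares of 88.3% and 78.6%, AP1 letters beside the summit in 37.5% and 6.80% of genes. Joining peaks less than 1000 bp apart gave 22.0%, widths of 1495, 1865 and 1179 bp, a D0 percentile of 65.1 and culture shares of 88.0% and 80.4%. Without chromosomes X and Y the D0 percentile was 69.3. A limit of 1000 bp gave 16.5% of genes, and one of 10000 bp gave 2182 members (19.7%) and 6.70% of genes. Distance from the summit gave 15.1% of genes. AP1 letters were in 3.57% of 200 bp windows, 21.2% of 500 bp windows, 11.8% with TGANTCA and 34.1% beside the summit, a stretch chosen after seeing the data. Genes with a member were 3.43% within 10 kb and 24.4% within 100 kb. No paired analysis was possible because the lists pool the replicates. Weak peaks near the calling limit, of 3 to 5 fragments, limit which peaks count as constant. The cause of these shifts was not tested.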

Other observations

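The 261 members in no culture list had a median D0 percentile of 56.3, against 69.2 for the 2635 in all 4. At least 50% of the sampled 31-base words occurred elsewhere in the genome in 3.83% of the former and 0.721% of the latter. Of the 16 members without H3K4me1, 3 were in all 4 culture lists. One of these lies between genes with Ezh2 as the nearest protein-coding gene and had H3K27ac folds of 38.0, 11.5, 22.5, 9.54 and 17.7 in order of time, with 88.9% of its sampled words found elsewhere. Members sharing a later peak with another member were most frequent in the W2 list, with 14.9%, and least in the W12 list, with 7.94%.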
